A study of Homo sapiens with 3 samples.

Results

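Ubiquitin-conjugating enzymes (E2 enzymes) and ubiquitin-specific proteases (USPs, the largest family of deubiquitinases) stand on opposite sides of protein ubiquitination. Transcript levels of both were described in 3 replicate libraries of RNA sequencing from the cell line OCI-Ly10, labelled as treated with MZ1 and taken at 6 h. Members were all protein-coding genes of the deposited count table outside chromosome Y whose GENCODE symbol begins with UBE2 and a letter or with USP and a digit. This gave 79 of the 15808 genes in the table, of which 32 were E2 genes and 47 USP genes. OCI-Ly10 is a long-established lymphoma line, derived from a human diffuse large B cell lymphoma. MZ1 is a degrader that brings BET bromodomain proteins to the von Hippel-Lindau (VHL) ubiquitin ligase. All 3 libraries carry the same labels, no untreated cells were analysed here, and every value below is a level in treated cells of 1 line and not a response to MZ1. Whether separate cultures were used for the replicates is not labelled, so a p-value here reflects the spread among these libraries alone, and that spread may be technical.

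An E2 enzyme receives activated ubiquitin from an E1 enzyme on a catalytic cysteine and passes it to a substrate with the help of an E3 ligase. A few E2 enzymes carry related modifiers in place of ubiquitin, such as NEDD8 or ISG15. USPs are cysteine proteases that remove ubiquitin from proteins or take chains apart, and each acts on its own set of substrates in chromatin, at endosomes, on organelles or at the proteasome. Degraders such as MZ1 depend on this machinery, because the recruited cullin ligase needs NEDD8 on its cullin and E2 enzymes that build ubiquitin chains.

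The libraries held 5474462, 1441246 and 1314812 counts in replicates 1, 2 and 3, and a count was worth 0.200, 0.629 and 0.767 CPM, the usual depth-scaled read count, taken here with TMM scaling. Members took 0.444% of the counts in replicate 1 (95% interval 0.438 to 0.449%, exact Clopper-Pearson). Their share was 0.527% in replicate 2 (0.516 to 0.539%) and 0.503% in replicate 3 (0.491 to 0.515%). Genes annotated as antisense took 0.251% of the counts in replicate 1, 2.04% in replicate 2 and 2.09% in replicate 3, so replicate 1 stood apart from the others. All 8 B cell markers that were checked reached 1 CPM in every library, and CD79A had a mean of 564 CPM. None of 4 markers each of T cells and red cells was in the table. Of 4 markers each of myeloid, epithelial and fibroblast cells, 2 were, with summed levels of 8.2, 8.17 and 4.6 CPM (myeloid), 46.8, 17.6 and 33.8 CPM (epithelial, nearly all KRT8) and 5.60, 1.89 and 2.30 CPM (fibroblast) in replicates 1, 2 and 3, and the part of such cells in the levels below was not tested. In bulk RNA, fewer cells of a type and less RNA per cell cannot be told apart.

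Most E2 genes carry, in the coding sequence, a His-Pro-Asn signature a short way before the codon of the catalytic cysteine. The signature was searched as CANCCNAAN in frame and on the coding strand, in the longest coding sequence of each gene (GENCODE 29). These letters also take the codons of glutamine and lysine in place of histidine and asparagine. It was found in 22 of 32 E2 genes, and a cysteine codon followed within 15 codons in 20 of them. Of the other 12327 protein-coding genes of the table with a coding sequence, 4.65% had the same arrangement. The windows below are shown because they give the catalytic region of the E2 enzymes for ubiquitin, NEDD8 and ISG15 whose levels are described first, and because they show how alike the UBE2D paralogs are. Capitals mark the signature and the cysteine codon.
UBE2D1: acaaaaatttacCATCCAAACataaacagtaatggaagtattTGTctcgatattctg
UBE2D2: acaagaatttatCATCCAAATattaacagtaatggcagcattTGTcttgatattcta
UBE2D3: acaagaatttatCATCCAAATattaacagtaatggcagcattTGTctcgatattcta
UBE2R2: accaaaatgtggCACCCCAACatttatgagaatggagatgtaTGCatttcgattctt
UBE2N: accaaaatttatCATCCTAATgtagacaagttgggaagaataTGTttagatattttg
UBE2M: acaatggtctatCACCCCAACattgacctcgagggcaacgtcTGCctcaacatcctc
UBE2L6: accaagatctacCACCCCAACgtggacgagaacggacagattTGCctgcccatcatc

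In all 7 windows 30 bases separated the first base of the signature from the first base of the cysteine codon. The windows of UBE2D2 and UBE2D3 differed at 1 of 57 bases, and those of UBE2D1 and UBE2D2 at 8. Over the whole coding sequence UBE2D2 and UBE2D3 were identical at 85.5% of aligned bases, with a longest identical stretch of 80 bases. UBE2A and UBE2B were identical at 80.5%, with a longest stretch of 25 bases. The sources used here do not give the read length or how reads with several matches were treated, so levels of UBE2D2 and UBE2D3 are uncertain to the extent that such reads were shared.

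USP genes carry a cysteine box, whose core was searched in frame as GGNAANACNTGN. It was found in 31 of 47 USP genes and in 0.827% of the other protein-coding genes. The box is shown for 4 USP genes among those of higher level, in capitals.
USP1: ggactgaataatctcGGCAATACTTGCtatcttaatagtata
USP12: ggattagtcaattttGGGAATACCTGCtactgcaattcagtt
USP14: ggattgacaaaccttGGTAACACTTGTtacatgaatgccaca
USP16: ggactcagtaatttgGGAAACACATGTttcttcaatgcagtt

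The core was not found in these letters in USP7 and USP5, nor in USP39, USP53 and USP54. USP6NL matched the symbol rule and is kept in all counts, but it encodes a GTPase-activating protein of Rab proteins and no deubiquitinase. Of the 115 protein-coding genes in GENCODE 29 that match the rule, 36 had no row in the table given here, 26 of them in the USP17L family of near-identical copies, and they were not analysed here.

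Per length of gene, the median E2 gene had a higher level than the median USP gene. A level of at least 1 CPM in every library was reached by 31 of 32 E2 genes and 40 of 47 USP genes, against 68% of all genes in the table and 78% of its protein-coding genes. Few counts suffice for it in replicates 2 and 3. UBE2V1 reached it with 7, 2 and 3 counts in replicates 1, 2 and 3, and USP18 with 7, 2 and 4. At a threshold of 2 CPM the numbers were 30 E2 genes and 38 USP genes. The median E2 gene had 11.5, 8.54 and 11.3 CPM per kb of exon in replicates 1, 2 and 3, and the median USP gene 3.46, 3.50 and 3.77. Protein-coding genes with a count had medians of 2.88, 2.41 and 2.64 CPM per kb. Those that reached 1 CPM in every library had 4.49, 3.65 and 4.10, above the USP median in each library, though the USP genes were not so filtered. The E2 median lay above the USP median in 3 of 3 libraries, by 1.53 ± 0.23 on the log2 scale (SD, n = 3), a 2.90-fold difference. No test was made of it, since the members were chosen by name. E2 genes had a median of 4264 bases of merged exon and USP genes of 7755, and without the length correction the difference was 0.66. Among members whose exons do not overlap an opposite-strand gene it was 0.92.

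**Figure D1:**
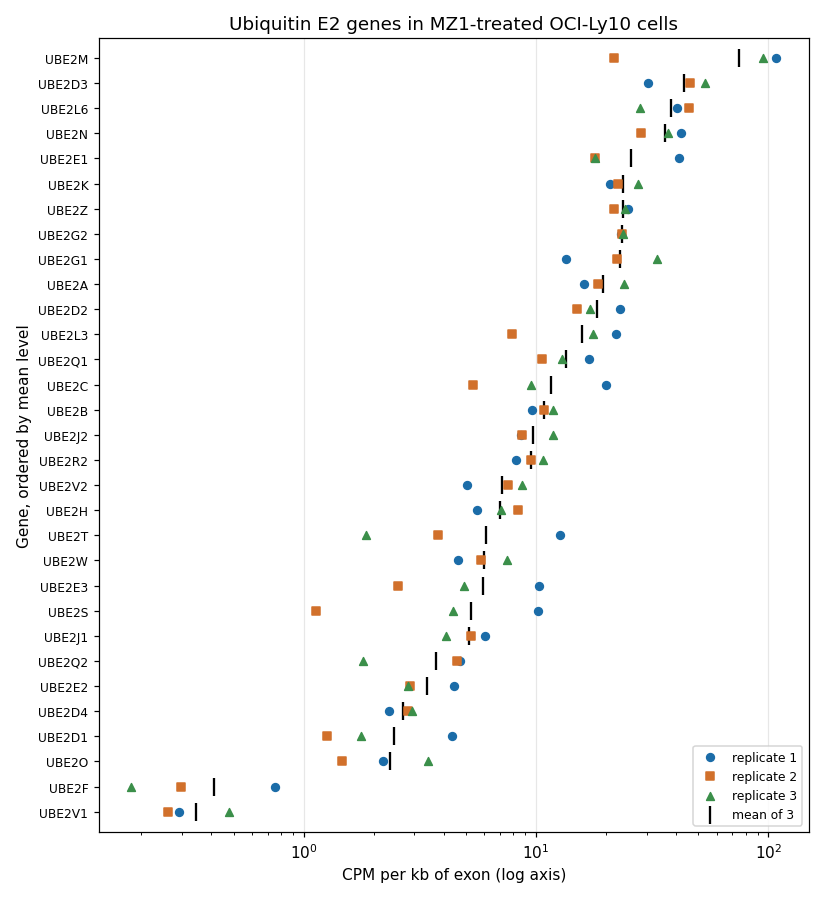
Levels of 31 of the 32 E2 genes in CPM per kb of exon (log axis), with a point for each of the 3 libraries and a bar for their mean. By mean level UBE2M, UBE2D3 and UBE2L6 lead, and UBE2F and UBE2V1 lie lowest, below 1 CPM per kb on average.

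Among E2 enzymes that carry modifiers other than ubiquitin, the NEDD8 enzyme gene UBE2M had the highest mean level per kb of all members. UBE2M (ENSG00000130725, chromosome 19, 58555712 to 58558960, minus strand, GRCh38) had 108, 21.6 and 94.7 CPM per kb in replicates 1, 2 and 3. Replicate 2 was far below the others, from 63 counts, and the gene varied between libraries (chi-square test of counts, Benjamini-Hochberg adjusted p = 1.80e-40). In replicate 2 UBE2D3 had 46.2 CPM per kb and UBE2L6 45.8, so UBE2M ranked first in replicates 1 and 3 alone. UBE2F, which pairs NEDD8 with CUL5, had 16, 2 and 1 counts, at 1.74 ± 1.29 CPM, and 1.07 CPM without replicate 1. UBE2M lay above UBE2F by a log2 ratio of 6.96, 5.72 and 8.31 per kb in replicates 1, 2 and 3. Of the 4238 exon bases of UBE2F, 688 are shared with the same-strand readthrough gene UBE2F-SCLY, and the part of shared reads in its low count was not tested. The ISG15 enzyme gene UBE2L6 had 40.4, 45.8 and 27.9 CPM per kb and was lowest in replicate 3.

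The E2 enzymes that serve cullin-RING ligases, the class that MZ1 recruits, differed widely in level. UBE2D2, a broadly used partner of RING ligases, had 82.0, 53.4 and 60.6 CPM in replicates 1, 2 and 3 and was highest in replicate 1. Its paralog UBE2D3 (ENSG00000109332, chromosome 4, 102794383 to 102868896, minus strand) had 307, 465 and 541 CPM, the highest mean CPM of any member, and was lowest in replicate 1. The log2 ratio of UBE2D2 over UBE2D3 was -1.22 ± 0.71 per kb, at -0.40, -1.61 and -1.65 in replicates 1, 2 and 3, so UBE2D2 was lower in every library. Per kb the libraries of UBE2D3 spanned 30.5 to 53.7 CPM and overlapped those of UBE2L6 and UBE2N. UBE2D1 and UBE2D4 are the other members of that subfamily. UBE2D1 had 15.2, 4.40 and 6.14 CPM, and its mean of 8.58 CPM was 5.49 CPM without replicate 1. UBE2D4 had 12.7 ± 1.48 CPM (mean ± SD, n = 3, as for all means that follow).

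UBE2R2 and UBE2G1, which lengthen ubiquitin chains on cullin ligases, differed in how stable they were. UBE2R2 had 33.4, 39.0 and 43.7 CPM in replicates 1, 2 and 3 and did not pass the test of variation (chi-square adjusted p = 0.221). UBE2G1 had 61.2, 101 and 150.4 CPM, lowest in replicate 1, and passed it (chi-square adjusted p = 1.54e-22). CDC34, the paralog of UBE2R2 outside the symbol rule, had 10.2, 7.54 and 19.2 CPM. UBE2L3, which charges HECT and RBR ligases, had 85.0, 30.2 and 67.5 CPM and was lowest in replicate 2. UBE2K, a builder of Lys48-linked chains, had 124 ± 18.7 CPM and UBE2Z, which is charged by the E1 enzyme UBA6, 136 ± 9.58 CPM.

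Of the 17 E2 genes in this broad class, 13 varied between libraries, against 67.2% of all tested genes. UBE2E1, UBE2E2 and UBE2E3, related E2 genes with an extended N terminus, had 79.2 ± 41.4, 11.1 ± 3.05 and 17.6 ± 11.8 CPM. UBE2E3 had 30.6, 7.54 and 14.6 CPM in replicates 1, 2 and 3, and a mean of 11.5 CPM without replicate 1. UBE2E1 had 41.3, 18.0 and 18.0 CPM per kb in replicates 1, 2 and 3, so replicates 2 and 3 were nearly equal and replicate 1 higher. The remaining members were UBE2W, which ubiquitinates N termini, at 54.4 ± 13.2 CPM, UBE2H, the E2 of the CTLH ligase, at 45.7 ± 9.15, UBE2O, which combines E2 and E3 activity, at 15.3 ± 6.48, and the little-studied UBE2Q1 and UBE2Q2 at 56.0 ± 13.3 and 14.2 ± 6.35 CPM.

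Lys63-linked ubiquitin chains are built by UBE2N together with a catalytically inactive cofactor, UBE2V1 or UBE2V2. UBE2V1 had 7, 2 and 3 counts in replicates 1, 2 and 3, at 0.290, 0.261 and 0.478 CPM per kb. UBE2V2 had 5.05, 7.61 and 8.71 CPM per kb. UBE2N had 42.0, 28.4 and 37.1 CPM per kb, lowest in replicate 2, and was among the 5 highest E2 genes on that scale. UBE2V1 was the lowest of the 3 genes in every library, with a log2 ratio over UBE2N of -6.34 ± 0.37 per kb. Of the 4818 exon bases of UBE2V1, 2066 are shared with the same-strand readthrough gene TMEM189-UBE2V1, which was not analysed here, and GENCODE 29 names 15 pseudogenes of UBE2V1. Their part in the low count was not tested. The exons of UBE2N overlap NUDT4 on the opposite strand over 2474 bases, and NUDT4 had 21.2, 70.4 and 35.3 CPM.

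The RAD6 genes UBE2A and UBE2B act with RAD18 at stalled replication forks. UBE2A had 84.8, 98.0 and 126 CPM in replicates 1, 2 and 3 and varied between libraries (chi-square adjusted p = 2.01e-04). UBE2B had 31.8, 35.8 and 39.1 CPM and did not pass the test (chi-square adjusted p = 0.442). UBE2A lay above UBE2B by 0.82 ± 0.15 on the log2 scale per kb, the pair ratio with the smallest SD of the 12 computed. Of the E2 genes that act at the endoplasmic reticulum, UBE2G2 was the most even. UBE2G2 (ENSG00000184787, chromosome 21, 44768580 to 44802019, minus strand) had 171, 174 and 175 CPM in replicates 1, 2 and 3. With TMM scaling its SD of log2 values, 0.0155, was the smallest of all members of at least 10 CPM. That rank depends on the scaling. Scaled by column totals, UBE2G2 had 174 ± 17.8 CPM and UBE2Z 136 ± 4.31 CPM. UBE2J1, which is anchored in that membrane, had 25.8, 22.6 and 17.6 CPM, and UBE2J2, likewise anchored, had 40.8, 40.9 and 56.0 CPM. None of UBE2G2, UBE2J1 and UBE2J2 passed the chi-square test at an adjusted 0.05, with chi-square adjusted p-values of 0.954, 0.272 and 0.078, where 67.2% of all 10016 tested genes did. UBE2J2 passed it when replicate 2 was left out.

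The E2 genes of the anaphase-promoting complex and UBE2T were among the 5 E2 genes of largest spread, with UBE2M and UBE2E3. UBE2S, which lengthens ubiquitin chains for that complex, had 28.4, 3.14 and 12.3 CPM in replicates 1, 2 and 3. UBE2C, which starts them, had 25.8, 6.91 and 12.3 CPM. UBE2T, the E2 of the Fanconi anaemia pathway, had 21.0, 6.29 and 3.07 CPM, from 105, 10 and 4 counts. All 3 genes were highest in replicate 1, with no other library reaching it, and passed the test (chi-square adjusted p = 2.46e-09 for UBE2S, 6.19e-06 for UBE2C and 3.50e-07 for UBE2T). They rest on few counts in replicates 2 and 3, at most 16.

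**Figure D2:**
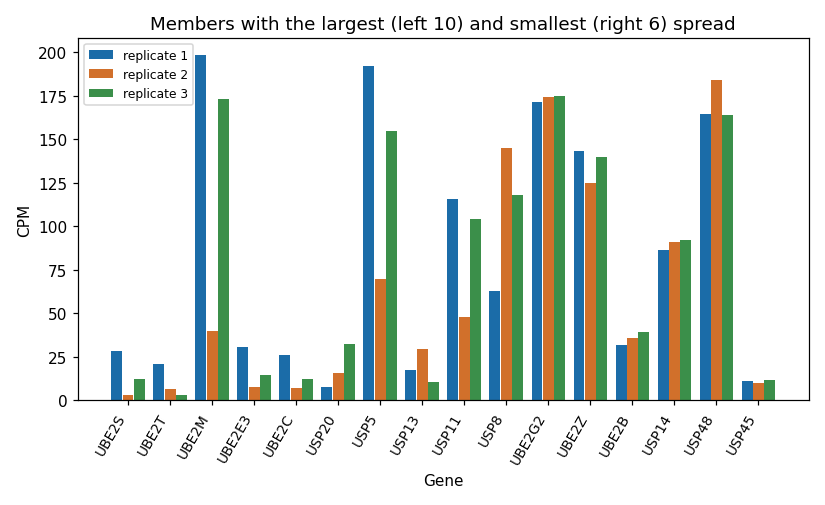
CPM in each of the 3 libraries for the 5 E2 and 5 USP genes with the largest SD of log2 values and for the 3 E2 and 3 USP genes with the smallest, among members of at least 10 CPM with TMM scaling. UBE2M spans 39.6 to 198 CPM, while the bars of UBE2G2 lie between 171 and 175 CPM.

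The 5 highest USP genes per kb were USP5, USP1, USP7, USP16 and USP22. USP5 (ENSG00000111667, chromosome 12, 6852128 to 6866632, plus strand), which takes apart unanchored chains, had 192, 69.8 and 155 CPM in replicates 1, 2 and 3, with replicate 2 far below the others (chi-square adjusted p = 4.02e-24). Per kb it had 37.2 ± 16.8 CPM, the highest mean of the USP genes. Its paralog USP13 had 17.6, 29.5 and 10.7 CPM and was highest in replicate 2, where USP5 was lowest. USP5 lay above USP13 in 3 of 3 libraries, by 3.98 ± 1.38 on the log2 scale per kb. USP14, which is bound to the proteasome, had 86.2, 91.1 and 92.1 CPM, the smallest spread among USP genes of at least 10 CPM (chi-square adjusted p = 0.77).

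**Figure D3:**
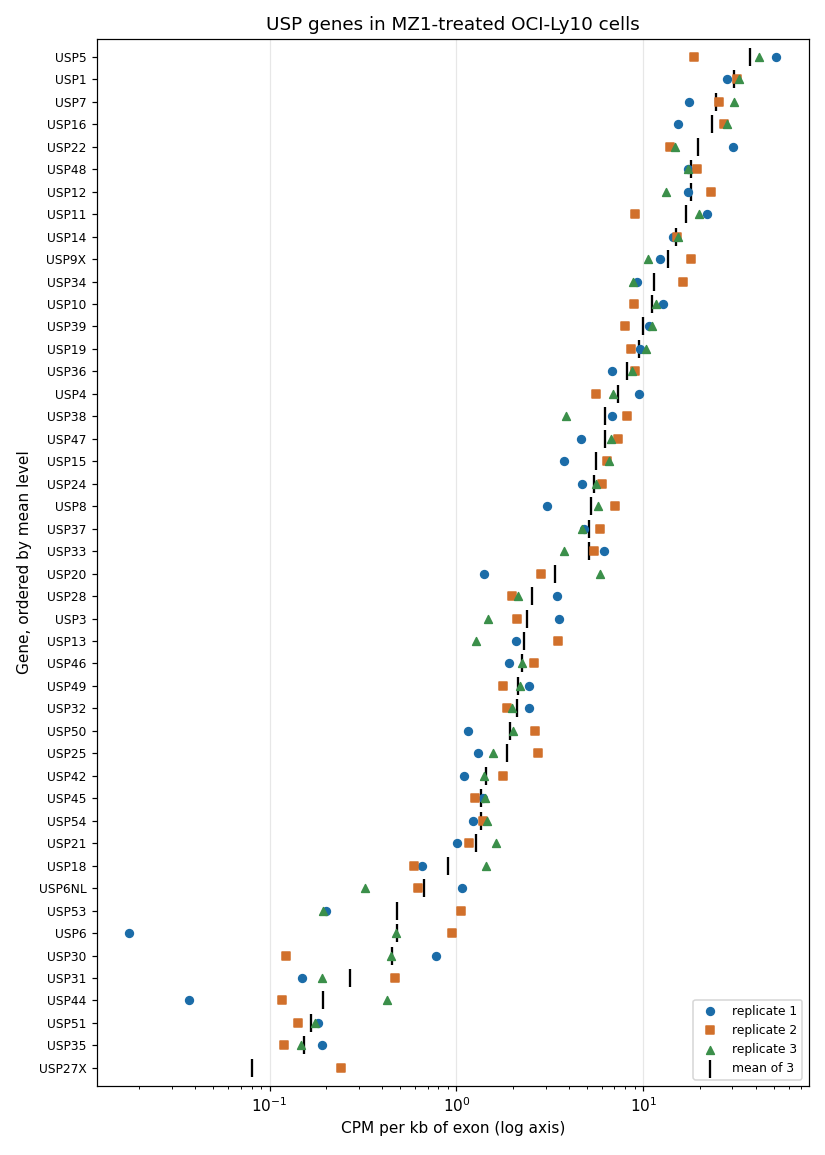
Levels of 46 of the 47 USP genes in CPM per kb of exon (log axis), with a point for each library and a bar for their mean. Libraries at 0 have no point on the log axis, and USP40, with no count, is left out. By mean level USP5, USP1 and USP7 lead, and USP27X is lowest.

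The USPs that depend on the cofactor UAF1 are USP1, USP12 and USP46. USP1 (ENSG00000162607, chromosome 1, 62436297 to 62451804, plus strand), which deubiquitinates FANCD2 and PCNA, had 119, 134 and 139 CPM in replicates 1, 2 and 3 and did not pass the test of variation (chi-square adjusted p = 0.147). USP12 had 90.6, 119 and 69.0 CPM and its paralog USP46 17.0, 23.3 and 19.9 CPM. USP12 lay above USP46 by 2.94 ± 0.34 per kb on the log2 scale, in 3 of 3 libraries. WDR48, which encodes UAF1, had 12.4, 12.6 and 8.44 CPM, and WDR20, a further cofactor of USP12 and USP46, had 9.0, 13.8 and 23.0 CPM. On the opposite strand, exons of WDR48 overlap GORASP1 and those of WDR20 overlap HSP90AA1, and the part of their reads was not tested. Per kb, WDR48 had 1.49 ± 0.312 CPM and WDR20 2.09 ± 0.972 CPM, against 30.7 ± 2.40 CPM for USP1.

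Of the 16 USP genes tied to chromatin, DNA damage and p53, 13 reached 1 CPM in every library, against 78% of protein-coding genes, and 8 of 13 tested varied, against 67.2% of all tested genes. Both shares lay near those of the table. USP7 (ENSG00000187555, chromosome 16, 8892094 to 8964514, minus strand), which stabilises MDM2, had 140.0, 202 and 245 CPM in replicates 1, 2 and 3, and USP16, a protease of histone H2A, had 87.4, 154 and 159 CPM. Both were lowest in replicate 1. USP22, the subunit of the SAGA complex, had 205, 94.3 and 100.5 CPM and USP11 115, 47.8 and 104 CPM, both highest in replicate 1. USP48 had 165, 184 and 164 CPM with no variation detected (chi-square adjusted p = 0.281). USP10, which acts on p53, had 65.0, 45.3 and 59.1 CPM and lay below USP7, by 1.11 ± 0.57 for USP7 over USP10 on the log2 scale per kb.

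Others of this class were the nucleolar USP36 at 75.4 ± 11.1 CPM, USP37 at 47.7 ± 6.09, USP49 at 23.4 ± 3.67, USP3, another H2A protease, at 18.5 ± 8.25, USP28 at 14.5 ± 4.64, USP45, which acts in DNA repair, at 10.9 ± 0.764 and USP42 at 10.1 ± 2.39 CPM. USP44, a regulator of the mitotic checkpoint, had 1, 1 and 3 counts in replicates 1, 2 and 3. USP51 had 4, 1 and 1 counts and USP27X 0, 1 and 0. USP51 and USP27X are paralogs of USP22, and per kb they had 0.166 ± 0.0206 and 0.0800 ± 0.139 CPM, against 19.6 ± 9.13 for USP22. A library without a count allows up to 0.600 CPM in replicate 1, 1.89 in replicate 2 and 2.30 in replicate 3 (3 counts per library, for counting error only).

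Signalling and trafficking USPs were expressed throughout, with 10 of 10 genes at 1 CPM or more in every library, against 78% of protein-coding genes. The test called 9 of 10, against 67.2% of all tested genes and 81.1% of those whose mean count reached 50. Of the 10, all but USP20 and USP25 reached that count. USP34, which acts in Wnt signalling, had 167, 297 and 160.3 CPM in replicates 1, 2 and 3 and USP9X, a large protease of many substrates, 171, 250.1 and 149 CPM. Both were highest in replicate 2. USP8, which controls endosomal sorting, had 63.0, 145 and 118 CPM and was lowest in replicate 1. USP4 had 63.4, 37.1 and 46.0 CPM and its paralog USP15 72.8, 124 and 127 CPM. USP4 over USP15 changed sign between libraries, at 1.35, -0.18 and 0.09 on the log2 scale per kb of merged exon, so no order was detectable on that scale. The order depends on the length used. By the longest transcript the mean ratio was 0.95, above 0 in every library, and without a length correction -1.13, below 0 in every library.

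USP20 and USP33, which are known to bind the VHL protein, also had no fixed order. USP20 had 7.80, 15.7 and 32.2 CPM in replicates 1, 2 and 3 and USP33 42.4, 37.7 and 26.1 CPM, with USP20 over USP33 at -2.04, -0.91 and 0.63 per kb. The exons of USP20 share 60 bases with the opposite-strand gene C9orf78, which had 93.8, 232 and 250.1 CPM and was likewise lowest in replicate 1. Whether reads of C9orf78 entered the USP20 counts was not tested. USP25 had 10.2, 21.4 and 12.3 CPM and its paralog USP28 19.8, 11.3 and 12.3 CPM, with USP25 over USP28 at -1.38, 0.44 and -0.45 per kb. The remaining members of the class, USP47 and USP24, had 69.6 ± 15.7 and 63.8 ± 7.82 CPM.

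Of 3 USP genes linked to organelles or to ISG15, USP19 alone reached 10 CPM. USP19, anchored in the endoplasmic reticulum, had 55.2, 49.0 and 59.1 CPM in replicates 1, 2 and 3 (chi-square adjusted p = 0.543), whereas USP30, of the mitochondrial outer membrane, had 20, 1 and 3 counts. USP18, the protease of ISG15, had 7, 2 and 4 counts, at 1.91 ± 1.01 CPM. Per kb this was 0.896 ± 0.473 CPM, against 38.0 ± 9.15 for UBE2L6, the E2 of the same modifier, and 4.16 ± 3.98 for ISG15 itself.

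USP39, USP53 and USP54 have long been held to lack protease activity. USP39, a splicing factor, had 42.6, 31.4 and 43.7 CPM in replicates 1, 2 and 3, USP53 2.40, 12.6 and 2.30 CPM and USP54 12.9 ± 1.14 CPM. USP53 was highest in replicate 2, where it had 20 counts. Of the other USP genes, USP38 had 52.8, 63.5 and 29.9 CPM, USP32 16.3 ± 2.41, USP21 4.78 ± 1.21, USP50 3.69 ± 1.42 and USP31 3.25 ± 2.10 CPM. Without replicate 2 the mean of USP31 was 1.95 CPM. USP6, a hominoid-specific gene, had 1, 17 and 7 counts, and replicate 1, the deepest library, held the fewest. USP35 had 5, 1 and 1 counts, USP40 had none in any library, and USP6NL had 15.2, 8.80 and 4.6 CPM. USP50 and USP8 overlap each other on opposite strands over 545 bases.

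The share of members that varied between libraries lay near that of all genes. The chi-square test called 22 of 30 tested E2 genes and 23 of 37 tested USP genes, which is 73.3% and 62.2%, against 67.2% of all tested genes. Called genes with their highest level in replicate 1 numbered 13 of 30 E2 genes and 9 of 37 USP genes, against 32.1% of all tested genes. For replicate 2 the numbers were 2 and 10, against 18%, and for replicate 3 they were 7 and 4, against 17%. The called E2 genes highest in replicate 1 included UBE2M, UBE2N, UBE2E1, UBE2D2, UBE2L3, UBE2Q1, UBE2C, UBE2T, UBE2E3, UBE2S, UBE2Q2 and UBE2D1. Those highest in replicate 3 were UBE2D3, UBE2K, UBE2G1, UBE2A, UBE2V2, UBE2W and UBE2O. The called USP genes highest in replicate 2 were USP12, USP9X, USP34, USP36, USP38, USP47, USP8, USP13, USP25 and USP53. Of members of at least 10 CPM, replicate 1 gave the highest level for 15 of 29 E2 genes and 10 of 34 USP genes, where the share over the whole table at that level was 43.1%. Replicate 2 gave the lowest level for 11 E2 genes and 11 USP genes, where that share was 40.5%. At 50 CPM or more, replicate 1 was highest for 8 of 15 E2 genes and 4 of 18 USP genes. Where the mean count reached 50, 18 of 24 E2 genes and 17 of 25 USP genes varied, against 81.1% of all genes so filtered. The median SD of log2 values was 0.359 for E2 genes and 0.373 for USP genes, against 0.493 for all genes of at least 10 CPM. Without replicate 1, 8 of 28 E2 genes and 10 of 37 USP genes were called, against 33.8% of all genes tested. Without replicate 2, 17 of 30 E2 genes and 14 of 37 USP genes were called, against 45.2%. Without replicate 3, 16 of 30 and 20 of 38 were called, against 56.2%.

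The differences of replicate 2 from replicate 1 and from replicate 3 ran with the GC content of members. Across the 29 E2 genes of at least 10 CPM, GC content had a Spearman's rho of -0.531 with the log2 difference of replicate 2 minus 1, and of -0.300 with that of replicate 3 minus 1. Across 34 USP genes it was -0.397 and -0.0432, and across all 7510 genes of that level -0.435 and -0.139. With the difference of replicate 3 minus 2, rho was 0.356 across E2 genes, 0.573 across USP genes and 0.466 across all genes of that level. These are descriptions across genes of the same libraries, and genes are not independent replicates. UBE2M, at 65.6% GC, had a difference of -2.31 for replicate 2 minus 1, and USP5, at 57.7% GC, of -1.46. USP16, at 35.6% GC, had a difference of 0.81. Other members went against this order in both directions. UBE2T, at 40.1% GC, had a difference of -1.66 and UBE2E1, at 42.8% GC, of -1.19. USP20, at 60.3% GC, had a difference of 0.97 and USP36, at 56.5% GC, of 0.40. The median difference of replicate 2 minus 1 was -0.19 for E2 genes and 0.22 for USP genes, against -0.14 for all genes. The part of GC content in the members' differences was not tested.

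**Figure D4:**
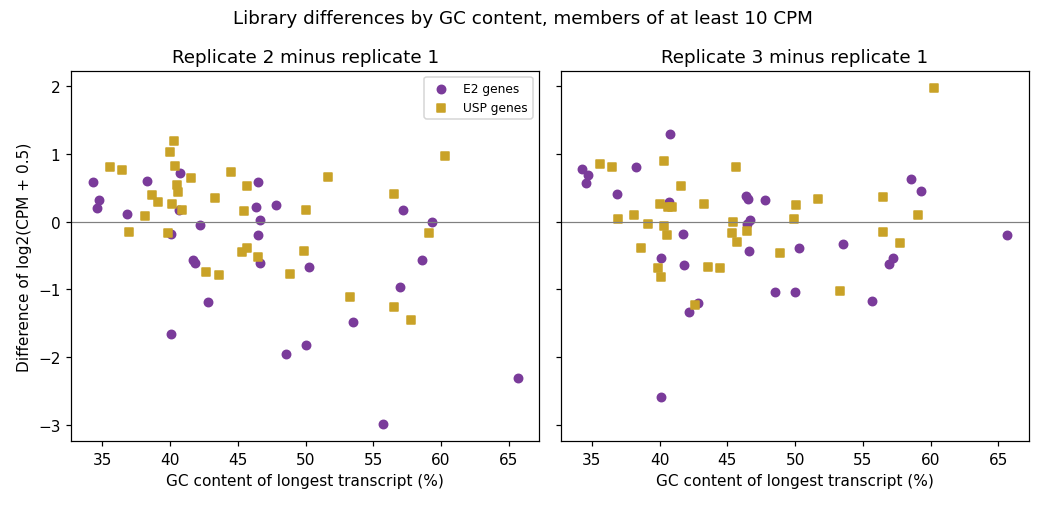
Difference of log2(CPM + 0.5) between libraries against GC content (%) of the longest transcript, for 29 E2 and 34 USP genes of at least 10 CPM, with replicate 2 minus 1 on the left and replicate 3 minus 1 on the right. On the left the points drop toward high GC content, with UBE2M at the far right near -2.31.

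Exons of 8 of 32 E2 genes and 18 of 47 USP genes overlap exons of a gene on the opposite strand, against 41.1% of protein-coding genes and 42.8% of all annotated genes of the table. The sources used here do not give the strand setting of the counting. Without strand, reads of such a member and of its partner would be mixed. Genes annotated as antisense took 0.251% of the counts in replicate 1, against 2.04% in replicate 2 and 2.09% in replicate 3. Whether such mixing differed between the libraries was not tested. UBE2A overlaps NKRF over 956 bases, and NKRF had 55.6, 56.6 and 62.9 CPM in replicates 1, 2 and 3. USP34 overlaps AHSA2P over 3263 bases, and AHSA2P had 54.6, 79.8 and 99.7 CPM. The part of such reads in the members' levels was not tested. Of members without such overlap, 15 of 22 tested E2 genes and 15 of 23 tested USP genes varied between libraries, against 66.6% of all tested genes without overlap. With overlap, 7 of 8 tested E2 genes and 8 of 14 tested USP genes varied, against 2648 of 3899 tested protein-coding genes with overlap.

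The 12 pairs were chosen by family or role and tested by exact permutation of the signs over the 3 libraries, two-sided, where the smallest p is 0.25. Of the pairs, 8 had the same sign in every library and reached that p (0.375 after Benjamini-Hochberg adjustment over 12 pairs), so no pair could pass 0.05. Besides those given above, UBE2J1 over UBE2J2 was -0.91 ± 0.52 on the log2 scale per kb, below 0 in 3 of 3 libraries. UBE2G1 over UBE2G2 was -0.78, -0.08 and 0.49 per kb of merged exon in replicates 1, 2 and 3, without a fixed order on that scale. By the longest transcript its mean was -0.70 and without a length correction -0.83, both below 0 in every library.

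**Figure D5:**
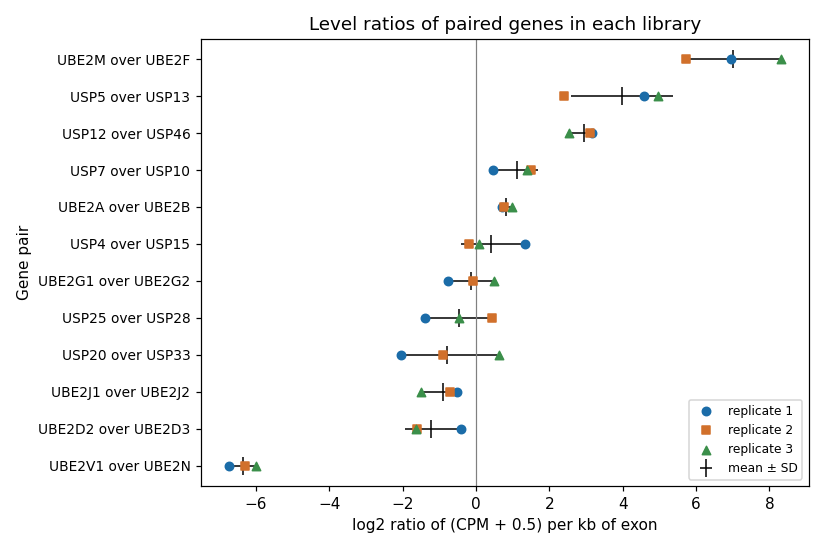
Log2 ratio of (CPM + 0.5) per kb of exon for 12 gene pairs, with a point for each library and a black bar for the mean ± SD over the 3 libraries. The vertical line marks equal levels, and the points of USP4 over USP15, UBE2G1 over UBE2G2, USP25 over USP28 and USP20 over USP33 fall on both sides of it.

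Other genes of the ubiquitin system were taken from a list of 39 genes. It held E1 enzymes, modifiers, E2 and E2-like genes outside the symbol rule, cofactors and deubiquitinases of other families. In the table were 38 of the 39, 36 reached 1 CPM in every library, and 27 of 37 tested varied between libraries, against 67.2% of all tested genes. Of the 37, 15 were called with their highest level in replicate 1, against 32.1%. UBB, which encodes ubiquitin, had 568, 116 and 90.5 CPM in replicates 1, 2 and 3, and RPS27A, which encodes ubiquitin fused to a ribosomal protein, had 3959.7, 1579 and 2782 CPM. Both were highest in replicate 1. UBA1, the main E1 enzyme gene for ubiquitin, had 807, 238 and 336 CPM, while UBA6, the other ubiquitin E1 gene, had 45.4, 43.4 and 54.5 CPM. UBA2, an E1 subunit for another modifier, was even, at 168, 167 and 169 CPM. Of the subunits of the NEDD8 E1, UBA3 had 53.2, 77.3 and 95.1 CPM and NAE1 69.0, 58.5 and 28.4 CPM. Per kb, UBE2M had 74.9 ± 46.6 CPM, UBA3 18.3 ± 5.13 CPM and NAE1 10.8 ± 4.38 CPM. ATG10, an E2-like enzyme of autophagy, had 3.0, 81.7 and 318 CPM, and its exons overlap RPS23 on the opposite strand. UCHL1, a deubiquitinase typical of neurons, had no count.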

How the data were processed

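RNA was extracted with Trizol and libraries were made with an Illumina TruSeq RNA kit, per the labels' protocols. The authors deposited a table of raw read counts per gene and a table of log2 CPM values. STAR, edgeR and the hg38 build are named in the submitters' processing notes, while the sources used here do not give versions, the counting tool, its use of strand or the annotation. The deposited log2 values hold an offset of 0.452 CPM and served as an alternative only.

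Counts were scaled with TMM (edgeR 4.0.16, R 4.3.3). Symbols, positions, merged exon lengths, GC content of the longest transcript and exon overlap were taken from GENCODE 29 (GRCh38) by unversioned gene ID, which matched for 15668 of 15808 IDs. The log2 scale is log2(CPM + 0.5), on which differences of low genes are understated. For 10016 genes whose mean count reached 10, the 3 counts were compared with equal expression by a chi-square test, with Benjamini-Hochberg adjustment at 0.05. Simulated counts on which this test was checked held counting error alone. In these data the spread beyond counting error, as a biological coefficient of variation, was 39.1%. The check does not cover such spread, and a small p-value shows only that libraries differ by more than counting error. Conditions are not compared by it. No contrast between groups could be tested. The members, role groups, pairs and lists were chosen with earlier results of these data known. Members are ordered by role, and some items are not reported here. Alternatives were DESeq2 1.42.0 size factors, column totals, other thresholds and lengths, the deposited values and leaving out each library. Intervals and limits cover counting error only.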

Additional observations from a re-analysis of the deposited data

How the results depend on the processing

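The 3 libraries set the limits here, and the shallower ones, replicates 2 and 3, limit what can be said of genes with few counts. No paired analysis was possible because there is 1 labelled group. Under size factors of DESeq2, scaling by column totals and expression thresholds of 0.5 or 2 CPM, the member counts stayed within 1.5 times of those reported. The same held for other minimum counts and for libraries thinned to the smallest column total. Leaving out each library in turn gave 8 to 17 called E2 genes and 10 to 20 called USP genes, in place of 22 and 23. Members highest in replicate 1 numbered 16 to 17 E2 genes and 14 to 17 USP genes when replicate 2 or 3 was left out, and 8 and 4 among members of at least 50 CPM, in place of 15 and 10. Called USP genes numbered 15 among those without opposite-strand overlap, which are fewer genes. The log2 difference of the E2 and USP medians, 1.53 as reported, was 0.66 without a length correction, 1.17 among members of at least 1 CPM and 0.92 without members with opposite-strand overlap, and leaving out each library gave 1.44 to 1.66.

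Of the pair ratios, UBE2G1 over UBE2G2 turned to 0.20 without replicate 1, with -0.43 to 0.20 over the 3 libraries left out in turn, and USP4 over USP15 turned to -0.049, with -0.049 to 0.72. Without a length correction USP4 over USP15 was -1.13. The other pairs and settings kept the sign, and the cause of the reversals was not tested beyond these settings. All 79 member means moved by no more than their SD under DESeq2 size factors and column totals. Under the deposited log2 values, whose library constants were 0.663 to 0.801 of the column totals, 48 moved by more. The order of members by spread depends on the scaling: the SD of UBE2G2 was 1.87 CPM with TMM and 17.8 CPM with column totals.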
